A study of Mus musculus with 189 samples.

Results

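Hdc, Slc18a2, Tph1, Ddc, Slc6a4, Maoa, Maob and Hnmt are the genes with which a mast cell makes, stores, takes back and breaks down histamine and serotonin. These 8 genes, chosen by symbol, are described here out of 46078 gene rows of a single-cell RNA sequencing study of late mast cell differentiation. All 8 had a row, and 7 reached 5 CPM (a read count scaled to the same total of gene reads) in at least 1 group, as did 10556 genes in all. The cells were peritoneal, from 4 mice that were female and of strain C57BL/6. All were sorted as live, lineage-negative (Lin-), c-Kit+ FcεRI+ cells. Mature mast cells (mature cells for short) were the integrin β7low SSChi cells of that gate, and basophil-mast cell progenitors (BMCPs) were the integrin β7hi SSClow cells. The labels name no genotype, treatment or age. Mast cells and their progenitors were taken from the same mice, but no cell is assigned to a mouse, so each group is 1 pooled sample and no difference below has a replicate check.

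Histamine is made from histidine by a single enzyme, histidine decarboxylase, the product of Hdc. Serotonin needs a pair of steps. Tryptophan hydroxylase, from Tph1 outside neurons, adds a hydroxyl group to tryptophan, and aromatic L-amino acid decarboxylase, from Ddc, removes the carboxyl group. Slc18a2 encodes VMAT2, the pump that loads amines into secretory granules. Slc6a4 encodes the serotonin transporter of the cell surface. Maoa and Maob encode mitochondrial monoamine oxidases, and Hnmt encodes the cytosolic enzyme that inactivates histamine by methylation.

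The gene models, on GRCm38, place Hdc (ENSMUSG00000027360) at chr2:126593667-126619299 on the minus strand and Hnmt (ENSMUSG00000026986) at chr2:24002910-24049394 on the minus strand. Tph1 (ENSMUSG00000040046) lies at chr7:46644641-46672537 on the minus strand. Ddc (ENSMUSG00000020182) at chr11:11814101-11898144, on the minus strand, and Slc6a4 (ENSMUSG00000020838) at chr11:76998603-77032340, on the plus strand, share a chromosome. Slc18a2 (ENSMUSG00000025094) lies at chr19:59260896-59296012 on the plus strand, and 111 of its exon bases overlap Gm29261 on the opposite strand. Reads from those bases cannot be assigned if counting ignored the strand. Maoa (ENSMUSG00000025037; chrX:16619698-16687818, plus strand) and Maob (ENSMUSG00000040147; chrX:16709282-16817366, minus strand) are neighbours on X that point towards each other. No exon of the other 7 genes overlaps an exon of another gene in that annotation. Reads were assigned to whole genes, exons and UTRs together.

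The start regions are shown for the 4 genes whose patterns differ most clearly below: Hdc, Tph1 and Slc6a4, which split the BMCPs into cells with and without the transcript, and Slc18a2, which hardly does. Each line is the 250 bases before the RefSeq start on GRCm38.p6, read 5′ to 3′ on the gene's strand. Capitals mark the letters GATA with A or T before them and A or G after them, a pattern bound by GATA factors, and the E-box letters CATGTG. Both strands were searched, and a match on the other strand is printed as its reverse complement. The windows are chr2:126618679-126618928 (minus strand) for Hdc, chr7:46672538-46672787 (minus strand) for the outer of 2 Tph1 starts, chr11:76998347-76998596 (plus strand) for Slc6a4 and chr19:59260628-59260877 (plus strand) for Slc18a2.
Hdc: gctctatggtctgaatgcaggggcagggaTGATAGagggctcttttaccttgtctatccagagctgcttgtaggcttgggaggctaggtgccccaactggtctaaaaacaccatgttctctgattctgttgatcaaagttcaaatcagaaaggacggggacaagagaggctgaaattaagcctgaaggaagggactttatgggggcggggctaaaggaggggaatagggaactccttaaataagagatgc
Tph1: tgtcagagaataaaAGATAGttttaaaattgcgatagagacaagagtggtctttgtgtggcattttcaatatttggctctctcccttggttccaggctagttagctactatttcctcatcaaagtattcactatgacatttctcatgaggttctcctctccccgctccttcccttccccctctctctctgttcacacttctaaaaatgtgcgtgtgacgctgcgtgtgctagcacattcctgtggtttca
Slc6a4: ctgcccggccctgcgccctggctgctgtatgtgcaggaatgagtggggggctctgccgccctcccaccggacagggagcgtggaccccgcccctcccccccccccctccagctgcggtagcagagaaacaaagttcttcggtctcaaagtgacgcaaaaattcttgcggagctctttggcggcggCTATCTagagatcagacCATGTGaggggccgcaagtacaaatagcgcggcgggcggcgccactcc
Slc18a2: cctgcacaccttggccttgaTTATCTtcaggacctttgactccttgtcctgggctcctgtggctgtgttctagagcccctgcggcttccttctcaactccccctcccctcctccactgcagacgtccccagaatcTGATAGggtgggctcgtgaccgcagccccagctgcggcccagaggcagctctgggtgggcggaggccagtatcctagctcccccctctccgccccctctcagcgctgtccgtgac
Hdc holds TGATAG 221 to 216 bases before the start, and Tph1 holds AGATAG 236 to 231 bases before it. Slc6a4 holds AGATAG on the other strand 65 to 60 bases before the start and CATGTG 48 to 43 bases before it. Slc18a2 holds AGATAA on the other strand at 230 to 225 and TGATAG at 115 to 110. The tables held a start region for 7 of the 8 genes, with 9 windows in all, and none for Maob. Of these 9 windows, 5 hold one of these GATA spellings, against 26.5% of 32851 windows of all genes. They are the 4 shown and that of Maoa. The inner Tph1 window, both Ddc windows and the Hnmt window hold no such spelling. CATGTG was in 1 of the 9 and in 12.3% of all windows, and CACGTG was in 0 of the 9 and in 6.02% of all. These are matches of letters only, and the motifs were chosen with the expression results known.

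After 2 BMCPs with 3978 and 36972 reads were left out, 94 mature mast cells with 118831096 gene reads and 93 BMCPs with 119524686 remained. Reads per cell ran from 561600 to 2152221 in mature mast cells and from 344022 to 2091665 in BMCPs. A median of 4134.5 genes was detected in a mature mast cell and 3750 in a BMCP, and the median number of gene reads per read of the added ERCC spike-in RNA was 939 and 562. The mast cell markers Kit, Fcer1a, Fcer1g, Ms4a2, Cpa3, Cma1, Tpsb2, Mrgprb1 and Mrgprb2 all reached 5 CPM. Of these 9, 1 (Mrgprb1) was more than 2-fold higher in mature mast cells, against 9.9% of all 10556 genes. BMCPs 46 and 80 held 5 and 4 of 5 B cell markers at 100 CPM or more. In these wells the mast cell proteases Cma1, Tpsb2, Cpa3 and Mcpt4 took 0.0354% and 0.0494% of reads. Hdc was at 3.43 and 1.17 CPM there, and Tph1 at 1.96 and 1.17, which gives the level these transcripts had in wells with almost no mast cell protease. Slc18a2 was at 1.17 CPM in BMCP 80 but at 195 CPM in BMCP 46, so that well counts as a cell with Slc18a2 below. Intervals below are exact 95% intervals, Poisson for summed reads and Clopper-Pearson for shares of cells. The Poisson intervals treat reads as independent, although reads without molecular identifiers are not independent molecules. The Clopper-Pearson intervals treat cells as independent draws, although the cells of a group are 1 pooled sample. Neither kind covers differences between mice.

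As a share of gene reads, mature cells held more RNA for histamine synthesis, serotonin synthesis, serotonin uptake and Maob. On that scale the storage pump Slc18a2 was at almost the same level in both groups. ERCC scaling put Slc18a2 higher in mature cells, at a log2 ratio of 0.88. Of the 7 genes with at least 5 CPM, 3 were 2-fold or more higher in mature cells (Ddc, Slc6a4 and Maob) and 0 were 2-fold or more higher in BMCPs, on the log2 scale with 1 CPM added to each level. Among all 10556 genes, 9.9% passed that bound towards mature cells and 19.2% towards BMCPs. The median log2 ratio of mature cells over BMCPs was 0.99 for the 7 genes and -0.25 for all genes. Tph1, at 0.99, lay just inside the 2-fold bound. Leaving out any 1 of many single cells of either group took it past, at most to 1.05 without BMCP 74. Maob, at 1.20, was the gene nearest to the bound outside.

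**Figure D1:**
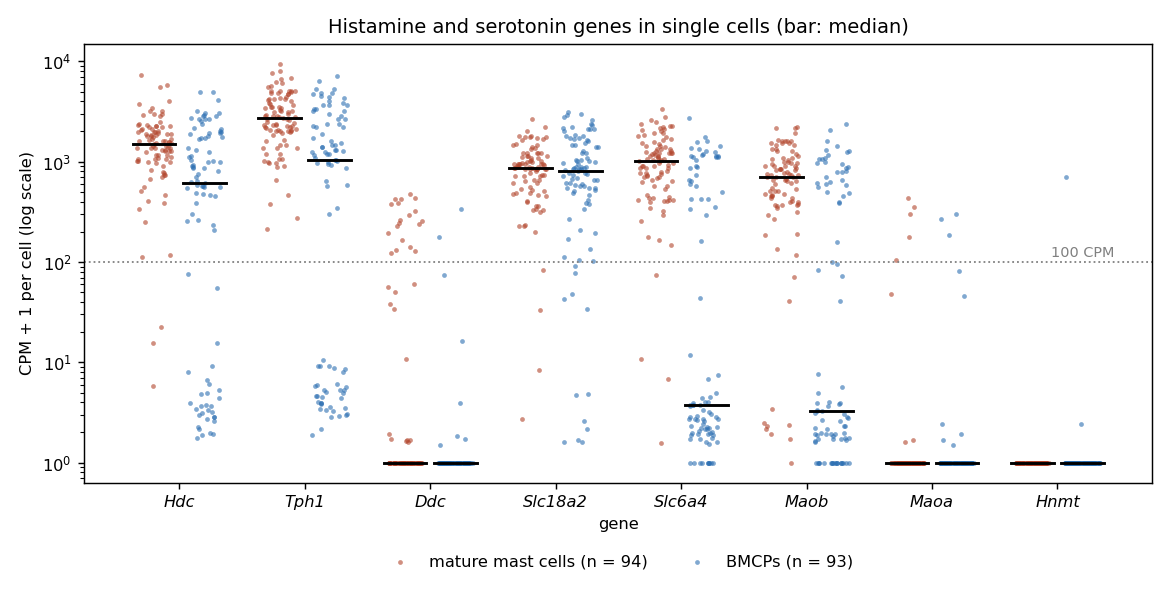
Level of each of the 8 genes in each cell, as CPM + 1 on a log axis, with mature cells (n = 94) in red, BMCPs (n = 93) in blue and a bar at each group's median. Tph1 and Hdc fall into a high and a low cloud in BMCPs, Slc6a4 and Maob have their BMCP medians in the low cloud, and Slc18a2 is high in most cells of both groups.

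Hdc was the histamine gene present in nearly every mature cell. Its level per mature cell was lowest at 4.78 CPM, had a median of 1505 and was highest at 7364. In BMCPs it was lowest at 0.777 CPM, had a median of 615 and was highest at 4929. The groups overlapped over most of their range, but only BMCPs had a large set of cells at the bottom of it. Hdc reached 100 CPM in 91 of 94 mature cells (96.8%, 90.96 to 99.3) and in 63 of 93 BMCPs (67.7%, 57.3 to 77.1). Of the rest, 27 BMCPs and 1 mature cell lay under 10 CPM, with at most 7 reads in any of them. Summed over cells, Hdc had 1735 CPM in mature cells (1728 to 1743) and 1045 in BMCPs (1039 to 1050), a log2 ratio of 0.73. Among cells at or above 100 CPM, the median was 1532 CPM in mature cells, with quartiles of 1060.0 and 2086, and 1117 in BMCPs, with quartiles of 601 and 2136.

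Tph1, whose product carries out the rate-limiting step of serotonin synthesis, split the BMCPs cleanly into cells with and without the transcript. Every mature cell was at or above 211 CPM, with a median of 2709 and a maximum of 9429. BMCPs ran from 0.893 to 7138 CPM with a median of 1026. No cell of either group lay between 10 and 100 CPM. In BMCPs, 58 of 93 cells (62.4%, 51.7 to 72.2) were at or above 100 CPM and the other 35 were under 10 CPM, with at most 11 reads each. All 94 mature cells passed 100 CPM (100%, 96.2 to 100). The low BMCPs lay nearer to the wells with B cell markers than to any cell at 100 CPM. Summed reads gave 3052 CPM in mature cells (3042 to 3062) and 1535 in BMCPs (1528 to 1542). Cells with the transcript also differed, with a median of 2709 CPM in mature cells (quartiles 1949 and 4192) against 1815 in the 58 BMCPs (quartiles 1175 and 3595), and these ranges overlap widely.

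Ddc, the second enzyme of the serotonin pathway, was found in a minority of cells of either group. Its median was 0 in both. The highest mature cell had 477 CPM and the highest BMCP 333. It reached 100 CPM in 19 of 94 mature cells (20.2%, 12.6 to 29.8) against 2 of 93 BMCPs (2.15%, 0.262 to 7.55). The summed level was 55.1 CPM in mature cells (53.8 to 56.5) and 4.85 in BMCPs (4.47 to 5.26), a log2 ratio of 3.26. BMCP 62 alone held 398 of the 580 BMCP reads, and mature cell 77 held 844 of 6552. Without these 2 cells the levels were 48.9 and 1.54 CPM and the log2 ratio was 4.30. All 19 mature cells with Ddc at 100 CPM also had Tph1, Slc18a2 and Slc6a4 at 100 CPM, 18 had Hdc and 17 had Maob. These genes were common in mature cells anyway. Tph1 passed 100 CPM in all 94, Hdc in 91, Slc18a2 and Slc6a4 in 90 each and Maob in 84. The 2 BMCPs with Ddc at 100 CPM had all 5 of Hdc, Slc18a2, Tph1, Slc6a4 and Maob.

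Levels of different genes can be set beside each other roughly once reads are divided by exon length and scaled to the same total in both groups (length-scaled level). The length was that of all annotated exons of a gene merged. It is not the length of the transcript present, so ranks and small ratios are approximate. On that scale Tph1 ranked 59th of all genes in mature cells at 1051 and 155th in BMCPs at 579. Hdc ranked 117th at 577 in mature cells and 254th at 380.3 in BMCPs. Ddc ranked 3419th at 26.3 and 10858th at 2.53. Per length, Tph1 stood 40.01-fold above Ddc in mature cells and 229-fold above it in BMCPs. RNA for the first step of serotonin synthesis was thus far more abundant than RNA for the second in both groups.

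Slc18a2, the granule pump for both amines, was the gene of the 8 shared most evenly by the groups. Mature cells ran from 1.72 to 2673 CPM with a median of 871, and BMCPs from 0.597 to 3143 with a median of 807. The ranges coincide almost entirely. It reached 100 CPM in 90 of 94 mature cells (95.7%, 89.5 to 98.8) and 81 of 93 BMCPs (87.1%, 78.5 to 93.2). Summed levels were 897 CPM (892 to 903) and 916 CPM (910.2 to 921). The log2 ratio of -0.03 has no stable sign: it was 0.22 with TMM scaling, 0.88 with ERCC scaling and 0.11 between the medians of cells. All genes together shifted too, with medians of -0.01 under TMM and 0.63 under ERCC scaling, so relative to the median gene Slc18a2 was higher in mature cells by a similar amount as reported and under both scalings.

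Slc6a4, which brings released serotonin back into the cell, was common in mature cells and in a minority of BMCPs. It ran from 0.573 to 3357 CPM in mature cells, with a median of 1011. In BMCPs it ran from 0 to 2722 with a median of 2.73. The maxima are close, but most BMCPs lay below nearly all mature cells. It reached 100 CPM in 90 of 94 mature cells (95.7%, 89.5 to 98.8) and 34 of 93 BMCPs (36.6%, 26.8 to 47.2). Cells past that level had similar amounts, with a median of 1037 CPM in the 90 mature cells and 1068 in the 34 BMCPs. The summed level was 1065 CPM in mature cells (1059 to 1070.5) and 373 in BMCPs (369 to 376.0), a log2 ratio of 1.51. Scaled by length, Slc6a4 stood 1.37-fold above Slc18a2 in mature cells and at 0.469 of it in BMCPs.

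Maob was the monoamine oxidase gene of these cells. In mature cells its level ran from 0 to 2209 CPM with a median of 702, and in BMCPs from 0 to 2361 with a median of 2.28. As for Slc6a4, the groups reached similar maxima and differed in how many cells were near 0. Maob reached 100 CPM in 84 of 94 mature cells (89.4%, 81.3 to 94.8) and 32 of 93 BMCPs (34.4%, 24.9 to 44.98). Within those cells the median was 757 CPM in mature cells and 839.8 in BMCPs. The summed level was 749.7 CPM in mature cells (745 to 755) and 325 in BMCPs (322 to 329), a log2 ratio of 1.20.

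Maoa, its neighbour on X, was nearly absent. It reached 100 CPM in 5 of 94 mature cells and 3 of 93 BMCPs, and its median was 0 in both groups. The summed level was 15.7 CPM in mature cells, of which mature cell 50 held 729 of 1869 reads, and 10.5 CPM in BMCPs, of which BMCP 73 held 595 of 1260. Without these 2 cells the levels were 9.73 and 5.66 CPM. The log2 ratio of 0.54 was 1.33 without BMCP 73 alone. Scaled by length, Maob stood 71.2-fold above Maoa in mature cells and 46.1-fold above it in BMCPs.

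Hnmt had 0 reads in all 94 mature cells, which allows a level of up to 0.0252 CPM by the 3-read limit used for a count of 0. BMCPs had 244 reads, or 2.04 CPM, and BMCP 61 held 242 of them at 703 CPM. Against the 3-read limit over the mature group, BMCPs were at least 80.9-fold higher, but without BMCP 61 only 2 reads are left and no fold can be given. BMCP 61 was the shallowest kept cell, with 344022 reads, and had 2.91 CPM of Tph1. Of the 3 genes that inactivate amines, Maob was thus the only member at 100 CPM in most mature cells, and none was in most BMCPs.

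**Figure D2:**
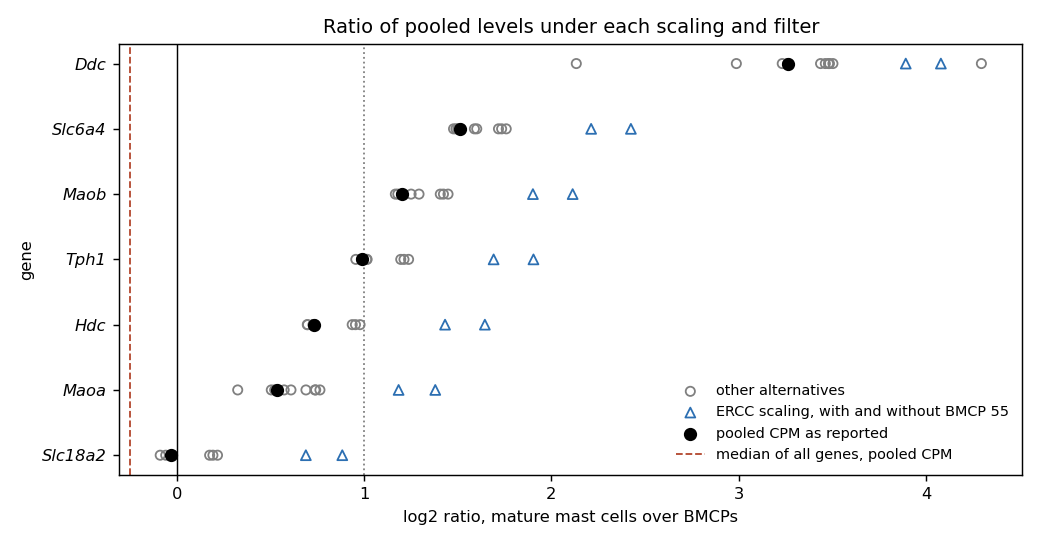
Log2 ratio of mature cells over BMCPs for the 7 genes with at least 5 CPM, as reported (filled circles) and under other scalings and filters (open marks; ratios between medians of cells and Hnmt are not drawn). The dotted line is the 2-fold bound and the dashed line is the median of all genes, -0.25. Ddc, Slc6a4 and Maob lie past the bound throughout, Tph1 lies at 0.96 or above on both sides of the bound, and Slc18a2 lies on both sides of 0.

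Shares of cells with any read at all say less than shares at 100 CPM, since Hdc, Slc18a2 and Tph1 had a read in every kept cell, the wells with B cell markers included. With every cell thinned to 100000 reads, Hdc had a read in 97.9% of mature cells and 77.4% of BMCPs, and Tph1 in 100% and 77.4%. Thinned shares were 97.9% and 48.4% for Slc6a4 (unthinned 100% and 89.2%) and 93.6% and 46.2% for Maob (unthinned 98.9% and 79.6%). For Ddc they were 26.6% and 5.38% (unthinned 32.98% and 8.60%). The order of the groups was the same at equal depth. A single read of Hdc or Tph1 does not set a BMCP apart from the wells with B cell markers, which also had such reads.

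The 5 common genes were counted together in each cell. All 5 of Hdc, Slc18a2, Tph1, Slc6a4 and Maob were at or above 100 CPM in 76 of 94 mature cells. A further 15 had 4 of them and 3 had 3, so no mature cell had fewer than 3. BMCPs were spread over the whole scale, with 5, 19, 16, 14, 20 and 19 cells holding 0, 1, 2, 3, 4 and 5 of the genes. The most frequent BMCP combinations were all 5 genes (19 cells), Slc18a2 alone (15, BMCP 46 among them), Hdc, Slc18a2 and Tph1 (12), Hdc with Slc18a2 (9) and Hdc, Slc18a2, Tph1 and Slc6a4 (9). Another 8 cells held Hdc, Slc18a2, Tph1 and Maob. Of the 19 BMCPs with 1 gene, 15 had Slc18a2, 2 had Maob, 1 had Hdc and 1 had Tph1. In BMCPs, Hdc and Tph1 could each be at 100 CPM without the other. Of these cells, 50 had both, 13 had Hdc alone, 8 had Tph1 alone and 22 had neither. The 2 BMCPs with Ddc at 100 CPM were among the 50. Of mature cells, 91 had both and 3 had Tph1 alone.

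**Figure D3:**
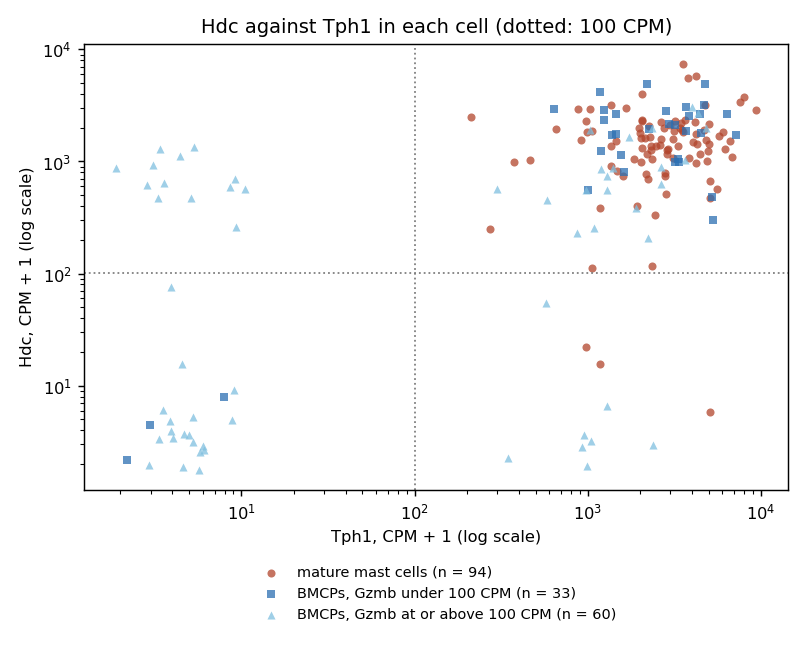
Hdc against Tph1 in each cell, both as CPM + 1 on log axes, with dotted lines at 100 CPM. Mature cells and BMCPs with Gzmb under 100 CPM lie mostly in the upper right corner, while BMCPs with more Gzmb fill all 4 corners.

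BMCPs were then compared by 3 measures that use none of the 8 genes: Gzmb, the gene of the cytotoxic protease granzyme B, Mcpt8, the gene of a protease typical of basophils, and the share of reads on Cma1, Tpsb2, Cpa3 and Mcpt4. These are ranges of expression in 1 pooled sample and not cell types. Mcpt8 was 1 of 5 listed basophil marker genes, which did not move together. Mcpt8 and Itga2 were higher in BMCPs (log2 -6.72 and -3.10). Prss34 and Cd200r3 were higher in mature cells (log2 0.88 and 0.69), and Cebpa had 0 reads. The 3 measures overlap, so they are not separate observations. The median protease share was 26.4% in BMCPs with Gzmb under 100 CPM and 12.3% in those at or above it. For Mcpt8 the same medians were 19.9% and 8.02%. No BMCP lay between 50 and 200 CPM of Gzmb, and 2 did for Mcpt8. CPM values of all genes in a cell share its total, so a cell with a larger protease share has fewer reads left for other genes.

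BMCPs with Gzmb under 100 CPM (n = 33) held the 5 common genes in more cells than those with Gzmb at or above it (n = 60) did, with the smallest difference for Slc18a2. Hdc reached 100 CPM in 30 of 33 of the first and 33 of 60 of the second, with medians of 1879 and 257 CPM. For Tph1 the counts were 30 of 33 and 28 of 60, with medians of 2825 and 8.20 CPM. Slc6a4 reached 100 CPM in 24 of 33 and 10 of 60, and Maob in 22 of 33 and 10 of 60. Their medians were 909 and 1.64 CPM for Slc6a4 and 592 and 1.20 CPM for Maob. Slc18a2 was in most cells of both, at 31 of 33 and 50 of 60, with medians of 879 and 716 CPM. Both BMCPs with Ddc at 100 CPM had Gzmb under 100 CPM.

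Between these sets of BMCPs, 6 of 7 genes with at least 5 CPM were 2-fold or more higher with Gzmb under 100 CPM, all but Slc18a2, and 0 were higher the other way. The call for Ddc rests on BMCP 62, which held 398 of the 500 Ddc reads of the low-Gzmb set, and without it the log2 ratio of 2.62 became 0.74. Maoa, at 2.83, was 1.77 without BMCP 73 and 4.601 without BMCP 69. Of all 10624 genes, 17.5% and 27.6% passed in these directions. The summed log2 ratio was 1.83 for Hdc, 1.67 for Tph1, 2.10 for Slc6a4, 2.20 for Maob and 0.16 for Slc18a2. Set against mature cells, the BMCPs with Gzmb under 100 CPM had 6 of 7 genes within 2-fold (Maoa, at -0.61, was -1.25 without mature cell 50), and Ddc was higher in mature cells by a log2 ratio of 2.16, or 4.03 without BMCP 62 (17.5% of 10311 genes passed in that direction and 15.6% in the other). BMCPs 46 and 80 are among the 33. Without them, 30 of 31 had Hdc, 30 of 31 Tph1, 30 of 31 Slc18a2, 24 of 31 Slc6a4 and 22 of 31 Maob. The median of gene reads per ERCC read was 731 in the 33 cells and 497 in the 60, and its part in these differences was not tested.

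**Figure D4:**
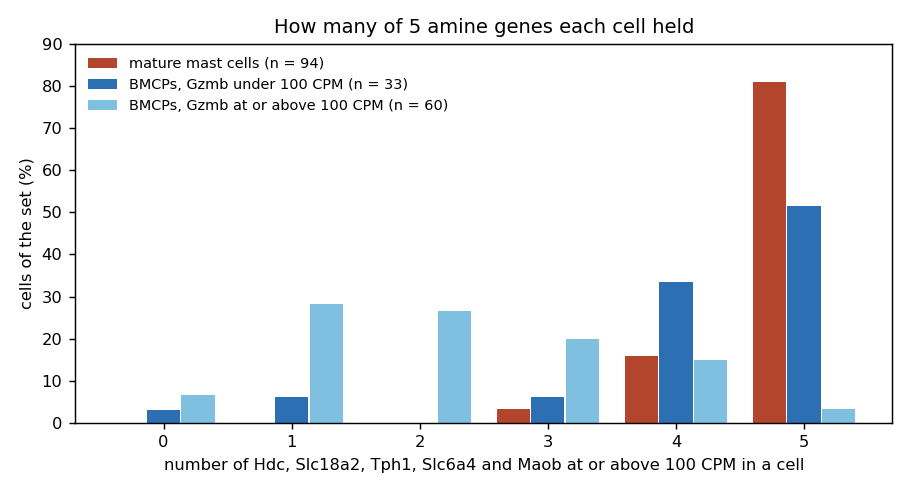
Percent of cells in each set that held 0 to 5 of Hdc, Slc18a2, Tph1, Slc6a4 and Maob at or above 100 CPM. Mature cells (n = 94) and BMCPs with Gzmb under 100 CPM (n = 33) peak at 5 genes, and BMCPs with Gzmb at or above 100 CPM (n = 60) are most often at 1 or 2.

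All 5 genes together were found in 17 of the 33 BMCPs with Gzmb under 100 CPM and in 2 of the 60 with more. Among those 60, 4 had none of the 5 genes, 17 had 1, 16 had 2, 12 had 3 and 9 had 4. In 13 of the 17 with 1 gene, that gene was Slc18a2.

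Mcpt8 divided the BMCPs in a similar way. Tph1 reached 100 CPM in 12 of 39 BMCPs with Mcpt8 at or above 100 CPM and in 46 of 54 with less, with medians of 4.77 and 1639 CPM. Hdc did so in 18 of 39 and 45 of 54, with medians of 53.7 and 1297 CPM. Slc6a4 was at 6 of 39 and 28 of 54, and Maob at 5 of 39 and 27 of 54. Slc18a2 was at 33 of 39 and 48 of 54. In this contrast 6 of 8 genes with at least 5 CPM were 2-fold or more higher with little Mcpt8, against 19.8% of 10627 genes. Hnmt was the 1 gene on the other side (24.3% of genes), through BMCP 61, which had 6639 CPM of Mcpt8. Without BMCP 62, Ddc fell under 5 CPM on both sides, and without BMCP 73 Maoa was within 2-fold at 0.56 in place of 1.596 (3.91 without BMCP 69). Among the 60 BMCPs with Gzmb, 23 had Mcpt8 under 100 CPM. These 23 held 18 of the 28 cells with Tph1, 17 of the 33 with Hdc, 6 of the 10 with Slc6a4 and 7 of the 10 with Maob.

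Ordered by protease share, the amine genes differed in which BMCPs held them. The 31 BMCPs with the lowest share (0.0354% to 9.78% of reads), the 31 in the middle (10.5% to 19.4%) and the 31 with the highest (19.7% to 32.6%) had Slc18a2 at 100 CPM in 26, 26 and 29 cells. Hdc was at 100 CPM in 11, 23 and 29 cells of these sets, with medians of 5.04, 643 and 1879 CPM. Tph1 was there in 3, 25 and 30 cells, with medians of 3.99, 1298 and 2825 CPM. Slc6a4 followed at 1, 10 and 23 cells and Maob at 2, 8 and 22. The count of Slc18a2 was thus nearly level, Tph1 differed most between the lowest and the middle set, and Slc6a4 and Maob were in most cells of the highest set only.

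Summed levels of Tph1 in the 3 sets were 76.7, 1594 and 2726 CPM, and those of Hdc 231, 874 and 1919 CPM. From the lowest to the highest set, 5 of 7 genes with at least 5 CPM were 2-fold or more higher in the highest (20.2% of 10517 genes) and 1, Hnmt, was higher in the lowest (34.9%). Hnmt rests on BMCP 61, and without BMCP 73 Maoa was under 5 CPM in both sets. Slc6a4, at a log2 ratio of 4.74, was 8.33 without BMCP 23, and Maob, at 2.75, was 5.01 without BMCP 52. BMCPs 46 and 80 had the lowest protease shares. Without them, the lowest set had 25 of 29 cells with Slc18a2, 11 of 29 with Hdc and 3 of 29 with Tph1. Gene reads per ERCC read had medians of 426, 533 and 644 in the 3 sets, and their part in the result was not tested.

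**Figure D5:**
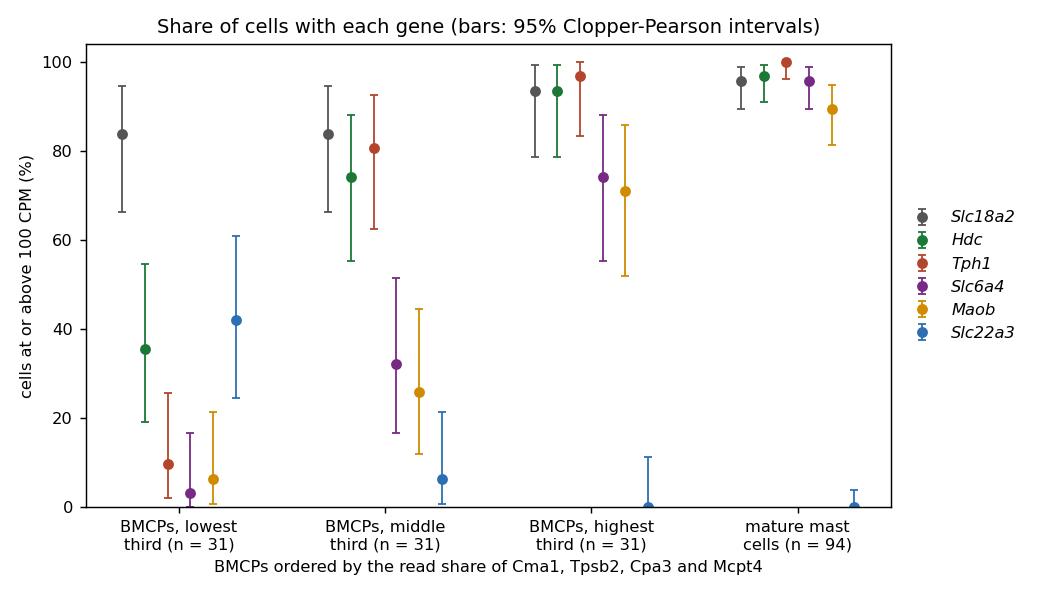
Percent of cells at or above 100 CPM for 5 amine genes and Slc22a3 in BMCPs ordered by protease share, 31 cells a set, and in mature cells, with 95% Clopper-Pearson intervals. Slc18a2 is high throughout, Hdc and Tph1 are higher in the middle set than in the lowest, Slc6a4 and Maob are highest in mature cells, and Slc22a3 goes the other way.

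Mature cells with and without Prss34, a protease gene also found in basophils, differed little in these genes. Of 7 genes with at least 5 CPM, 6 were within 2-fold between the 37 cells with Prss34 at or above 100 CPM and the 57 with less. The summed level of Hdc was 1745 and 1729 CPM, that of Slc18a2 866 and 916 CPM, and that of Tph1 2860.0 and 3171 CPM. Slc6a4 was at 839 and 1204 CPM. The exception was Maoa, whose 5 cells at 100 CPM all had little Prss34. Of all 10093 genes, 16.6% passed in that direction and 13.2% in the other. Most genes were therefore within 2-fold too, and 6 of 7 does not set these genes apart.

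The likeness of other genes to Hdc, Slc18a2 and Tph1 across cells was measured by Spearman's rho of log2(CPM + 1). It was taken over genes that had 50 CPM or more in a group and were detected in 50% or more of its cells. All values of a cell share its library and total, so these are descriptions. Over 93 BMCPs and 1767 genes, the genes most like Hdc were Tph1 (0.62), Pla2g7 (0.59), Cma1 (0.59), Cpa3 (0.58) and Ecm1 (0.56). Those most like Tph1 were the tryptase gene Tpsab1 (0.71), the chymase gene Cma1 (0.69), Mrgprx2 (0.66), Pla2g7 (0.65) and the tryptase gene Tpsb2 (0.63), with Hdc next at 0.62. For Slc18a2 the highest values were lower: Elovl1 (0.33), Fermt3 (0.32), Kit (0.32), D10Jhu81e (0.32) and Slc9a3r1 (0.30). Hdc, Tph1 and the granule proteases thus varied together across BMCPs, and Slc18a2 varied with none of them to that extent. With the protease share itself, rho was 0.72 for Tph1, 0.61 for Hdc, 0.58 for Slc6a4, 0.44 for Maob and 0.08 for Slc18a2.

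No such pattern was seen in mature cells. Among 94 cells and 2129 genes, the genes most like Hdc were Snap23 (0.43), Bcap31 (0.32), Wapl (0.31), Ndufc2 (0.31) and Txnip (0.30). For Tph1 they were Aldoa (0.35), Cd63 (0.35), Ndufb10 (0.34), Frmd4a (0.33) and Chtf8 (0.32), and for Slc18a2 Slc29a1 (0.39), Ide (0.37), Arhgap45 (0.34), Gnai1 (0.33) and Apobec3 (0.33). Pairs among Hdc, Slc18a2, Tph1, Slc6a4 and Maob had rho between -0.08 and 0.17 in mature cells. The rho of Hdc and Tph1 was 0.12 there and 0.62 in BMCPs.

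Other genes of amine metabolism came from lists of enzymes, cofactor supply, transporters and receptors. For the counts of these lists, 9.9% of all 10556 genes were 2-fold or more higher in mature cells and 19.2% in BMCPs. Of 11 further enzymes, 3 reached 5 CPM and 1 of these was 2-fold or more higher in mature cells, with a median log2 ratio of -0.31. That gene was Aldh3a2, an aldehyde dehydrogenase, at 75.2 CPM in mature cells and 31.7 in BMCPs. Aldh2, which oxidises the aldehydes that monoamine oxidases make, had 355 and 559 CPM (log2 -0.65). Tph2, the tryptophan hydroxylase of neurons, had 0 reads in every cell, as did Aanat, Ido1 and Ido2. Tph1 was thus the tryptophan hydroxylase detected here.

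Of 9 measured genes that supply cofactors, 1 was 2-fold or more higher in each direction, and the median was 0.25. Gch1, which starts the synthesis of tetrahydrobiopterin, the cofactor of tryptophan hydroxylase, was at 45.99 CPM in mature cells and 139 in BMCPs (log2 -1.58). Gchfr, whose product regulates that enzyme, was at 17.3 and 2.91 CPM (log2 2.23). Within BMCPs, Gch1 reached 100 CPM in 16, 12 and 4 cells of the sets with low, middle and high protease share. Pdxk, which makes pyridoxal phosphate, the cofactor of both decarboxylases, was at 426 CPM in mature cells and 334 in BMCPs, and Qdpr, which regenerates tetrahydrobiopterin, at 137 and 114.

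Among 10 transporter genes, 5 reached 5 CPM, 1 of them 2-fold or more higher in BMCPs, and the median was -0.01. This was Slc22a3, the gene of a low-affinity organic cation transporter that carries histamine and serotonin across the cell membrane. It had 5 reads in all mature cells, at most 1 in a cell, and 70.7 CPM in BMCPs (log2 -6.10). All of its BMCP signal past 10 CPM was in 15 cells, which also passed 100 CPM. All 15 had Gzmb at 100 CPM and 14 had Mcpt8, while 3 had Tph1, 6 had Hdc, 1 had Slc6a4 and 2 had Maob. By protease share the cells were 13, 2 and 0 in the lowest, middle and highest sets. Slc18a1, the other vesicular monoamine pump, had 0 reads. Slc3a2 and Slc7a8, subunits of amino acid carriers, were at 602 and 213 CPM in mature cells and 607 and 231 in BMCPs.

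Receptors for the amines were sparse. Of 4 histamine receptor genes, Hrh4 had 89.6 CPM in mature cells and 145 in BMCPs (log2 -0.69), in 25 cells of each group at 100 CPM. Hrh2 had 1 read in mature cells and 20.5 CPM in BMCPs, where BMCP 63 held 1353 reads, BMCP 44 held 1063 and no other cell more than 35. Hrh1 had 0 reads. None of 14 serotonin receptor genes reached 5 CPM, and 7 had no read.

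The list of 6 other granule genes gave context for the storage pump: 1 of 6 (Mcpt4, log2 1.98) was 2-fold or more higher in mature cells, with a list median of 0.62. Among all genes 9.9% were. Of 8 transcription factor genes of the mast cell lineage, 2 were 2-fold or more higher in BMCPs, Runx1 (log2 -2.57) and Stat5a (log2 -1.95), and the median was -0.39. With so few genes, 2 of 8 is not set apart from the 19.2% of all genes that passed towards BMCPs. Gata2 was at 1041 CPM in mature cells and 1394 in BMCPs, and Gata1 at 232 and 152. Platelets also carry serotonin with Slc6a4 and Slc18a2, and their defining genes Pf4 and Ppbp had 0 reads in every cell. Of the 6 platelet genes only Itga2b passed 5 CPM, at 228 CPM in mature cells and 424 in BMCPs. The summed level of the 6 genes per cell ran from 0 to 1305 CPM in mature cells and from 0 to 3557 in BMCPs.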

How the data were processed

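Raw read counts per gene were deposited by the authors as a table with a column for each of 189 cells. They were made with GSNAP and HTSeq (0.5.3p3) on mm10, per the submitters' processing notes. The counting options, the strand setting and the annotation are not given in the sources used here. Per the labels' protocols, cells were index-sorted, amplified with oligo-dT primed cDNA synthesis and sequenced as single-end reads, with ERCC spike-in RNA and no molecular identifiers.

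Symbols and coordinates came from GENCODE M21 on GRCm38, which matched 98.0% of 46078 identifiers, and start regions from RefSeq on GRCm38.p6. The 92 ERCC rows and 5 summary rows were left out of totals. Cells with at least 100000 gene reads were kept. Doublets were not called. Counts of a group were summed and divided by its summed reads (CPM), and ratios were log2 of CPM + 1. With 1 pooled sample a group, no test was made. The levels of 10, 100 and 1000 CPM divide cells for counting only.

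The 8 genes, the lists and the splits were chosen with earlier results of these data known. Genes named were the 8, the most abundant 3 and those past 2-fold of each list at 5 CPM, and the 5 most alike by Spearman's rho. Genes at 0 and single cells that hold most reads of a gene were named after their values were seen. The alternatives were TMM (edgeR 4.0.16) and DESeq2 1.42.0 size factors, used for scaling only, ERCC scaling, other totals, means or medians of cells, other added constants, cell filters and cells left out. The code was tested on simulated data. Python 3.11.15, numpy 2.4.6, scipy 1.17.1, pandas 2.3.3 and R 4.3.3 were used.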

Additional observations from a re-analysis of the deposited data

How the results depend on the processing

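Under 14 alternatives, Hdc, Tph1, Slc6a4 and Maob stayed above BMCPs in mature mast cells. Their log2 ratios ran from 0.70 to 1.64 for Hdc, 0.96 to 1.90 for Tph1, 1.48 to 8.08 for Slc6a4 and 1.17 to 7.74 for Maob. The upper ends for Slc6a4 and Maob compare medians of cells, where BMCPs lie near 0. Tph1 passed the 2-fold bound in 8 of 14 and Hdc in 3. Ddc ran from 2.13 with 10 CPM added to 4.30 without the top cell of each group, and was 0 between medians of cells, as was Maoa. Maoa was otherwise between 0.32 and 1.38. Slc18a2, at -0.03, became 0.22 under TMM, 0.19 under DESeq2 size factors, 0.88 under ERCC scaling, 0.69 under ERCC scaling without BMCP 55, 0.17 with granule genes and the 8 genes left out of the totals, and 0.11 between medians of cells. Of the 7 genes with at least 5 CPM, the number 2-fold or more higher in mature mast cells was 3. It rose to 6 under ERCC scaling and was also 6 without BMCP 55, which held 13.7% of BMCP ERCC reads. It was 4 under 6 other alternatives and 3 under the rest. The 4 were not always the same genes. Between medians of cells they were Hdc, Tph1, Slc6a4 and Maob, with Ddc at 0. The share of all genes past that bound was 30.7% under ERCC scaling, 23.7% without BMCP 55, 13% under TMM and 12.6% under DESeq2 size factors, and towards BMCPs 8.45%, 9.48%, 14.7% and 14.9%. It was 12.6% with granule genes and the 8 genes left out of the totals, 9.17% for means of cells and 8.96% for medians. Towards BMCPs these shares were 15.5%, 19% and 1.09%. Where the count stayed at 3, the shares ran from 3.41% to 10.7%, and from 8.9% to 20.4% towards BMCPs. The cause was not tested. With no minimum level 1743 genes passed towards mature mast cells, against 1045, and with 50 CPM 169 did (towards BMCPs 2799, against 2030, and 574). Stricter limits on genes, mitochondrial and ERCC reads removed no cell, and a minimum of 500000 reads removed 3 BMCPs, BMCP 61 with most Hnmt reads among them. Leaving out the wells with B cell markers, BMCP 55 from ERCC scaling, and each cell in turn were chosen after seeing the data. No paired analysis was possible because each numbered sample is a single cell and no result comes from a test. With 344022 to 2152221 reads per cell, levels of a few CPM rest on a few reads.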

Other observations

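Of the 94 mature mast cells, 6 had Mcpt8 at or above 100 CPM, a cut chosen after the values were seen. Hdc in these 6 ran from 14.5 to 1294 CPM with a median of 358, and 4 of 6 passed 100 CPM, while the other 88 had a median of 1563 and 87 passed. Tph1 passed 100 CPM in all 6 and all 88, with medians of 1807 and 2768 CPM. Slc6a4 also passed in all 6, with medians of 732 and 1025 CPM. The low Hdc of these cells was therefore not shared by Tph1 to the same degree. No test was made on cells of 1 pooled sample.

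BMCPs were also divided by Prss34. All 26 BMCPs with Prss34 at or above 100 CPM had Slc18a2 at 100 CPM, 24 had Tph1 and 21 had Hdc. Among the 67 with less, 55 had Slc18a2, 34 had Tph1 and 42 had Hdc. Tph1 and Hdc were thus more frequent in BMCPs with Prss34, the opposite of the split by Mcpt8. Slc6a4 and Maob were each in 10 of the 26, and in 24 and 22 of the 67. Gene reads on the 4 proteases had a median share of 17.7% in the 26 cells and 14.003% in the 67.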
